A study of Homo sapiens with 4 samples.

Results

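CDT1, RRM2, BRCA1, CKS2 and CDKN1C are 5 genes that act at different steps of the cell division cycle, and they were followed here in the human multiple myeloma line LP-1, an established culture, after knockdown of the chromatin reader HRP2. The 5 were picked by symbol with their values in this comparison known, from the 684 genes of the authors' deposited gene table and the 1040 transcripts of their transcript table. All 5 had a row in the gene table, and 2 rows of the transcript table belonged to them. The comparison is of HRP2 knockdown LP-1 cells, in which a lentivirus delivered a guide RNA to HRP2 (2 libraries), with LP-1 cells given a non-target control construct (2 libraries). Cells of both groups grew in the same serum-supplemented medium, and the labels describe no drug or timed treatment. The labels do not say whether the guide cut or repressed the gene, whether the cells were a clone, or whether libraries within a group were separate cultures, and the Q values may therefore reflect spread that is technical.

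A cell copies its genome once per division because origins of replication are licensed only in G1. CDT1, together with CDC6 and the origin recognition complex, loads the MCM helicase onto origins, and CDT1 is then destroyed or held by geminin once S phase begins. RRM2 is the small subunit of ribonucleotide reductase and limits the supply of deoxynucleotides for DNA synthesis. BRCA1 directs homologous recombination and protects stalled forks in S and G2. CKS2 is a small protein that binds cyclin-dependent kinases and helps them act on substrates phosphorylated at several sites, and CDKN1C (p57) is an inhibitor of the same kinases, expressed from an imprinted domain. CDT1, RRM2, BRCA1 and CKS2 are known as genes whose transcripts follow the cycle, whereas CDKN1C is better known from tissues leaving it.

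The promoters are shown first, because E2F, CHR and NF-Y box elements are the textbook sequences of genes transcribed at G1/S or at G2/M. RefSeq (GRCh38.p14) gave a window of 250 bases before to 50 after a start for 4 of the 5 genes, in 6 windows, because RRM2 and BRCA1 have 2 annotated starts each. CDKN1C had no entry. The 150 bases before a start are printed for 1 start of each gene, 5′ to 3′ on the gene's strand, with the matches to E2F, CHR and NF-Y box words in capitals: CDT1 at chr16:88803639-88803788 (plus strand), RRM2 at its second start at chr2:10122589-10122738 (plus strand), BRCA1 at its second start at chr17:43125365-43125514 (minus strand) and CKS2 at chr9:89311045-89311194 (plus strand).
CDT1: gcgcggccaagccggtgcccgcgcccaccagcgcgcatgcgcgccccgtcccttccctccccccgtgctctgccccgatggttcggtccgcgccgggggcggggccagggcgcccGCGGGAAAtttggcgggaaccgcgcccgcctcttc
RRM2: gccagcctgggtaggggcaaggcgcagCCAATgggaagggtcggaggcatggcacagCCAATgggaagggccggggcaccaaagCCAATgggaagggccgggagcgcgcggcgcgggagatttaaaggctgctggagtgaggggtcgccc
BRCA1: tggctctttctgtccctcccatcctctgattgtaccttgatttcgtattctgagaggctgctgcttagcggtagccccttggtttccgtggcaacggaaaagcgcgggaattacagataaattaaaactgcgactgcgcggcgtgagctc
CKS2: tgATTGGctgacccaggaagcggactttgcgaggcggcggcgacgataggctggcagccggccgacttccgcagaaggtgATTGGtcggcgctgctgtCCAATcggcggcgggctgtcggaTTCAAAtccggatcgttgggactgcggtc

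The 4 windows differed in these words. The E2F words searched were TTTCCCGC, TTTGGCGC, TTTCGCGC and TTTGCCGC, read on both strands, and CDT1 alone among the 6 windows held one, on the opposite strand with its first base 35 bases before the start. Of all 35116 RefSeq windows, 3.31% held an E2F word, as did a window of 5.81% of the 551 called genes that have one. The CHR words TTTGAA and TTCGAA occurred in the CKS2 window alone of the 6, 29 bases before the start on the opposite strand, and in 16.4% of all windows and 14.7% of those called genes. The NF-Y box CCAAT was found 3 times before the second RRM2 start, 3 times before CKS2, once in each of the first RRM2 window and the second BRCA1 window (there outside the printed stretch), and in 34.6% of all windows and 45.7% of the called genes. The GC box GGGCGG, which was not put in capitals, had 1 match in CDT1, 1 in the first RRM2 window and 2 in the first BRCA1 window, where 45.0% of all windows and 78.2% of the called genes had a match. For every motif the first share counts windows, whereas the second counts a gene if any of its windows had a match. The 2 shares are therefore unlike measures, and no excess among called genes is read from them. None of the E2F, CHR and NF-Y words overlapped another. Thus the lower genes CDT1, RRM2 and BRCA1 shared none of the exact E2F or CHR words searched. The NF-Y box was present both in windows of lower genes and in that of CKS2, which was higher. A match is a run of letters and not a measured binding site. Only exact words were searched, so a window without a match may still hold a variant of the word.

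**Figure D1:**
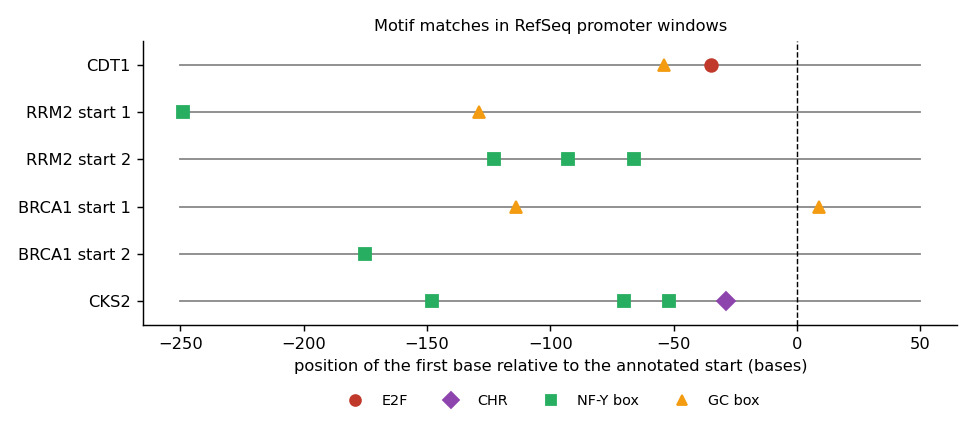
Matches to 4 motifs in the RefSeq promoter windows of CDT1, RRM2, BRCA1 and CKS2. The x axis gives the first base of each match relative to the annotated start, in bases, each row is one window, and the dashed line is the start. The only E2F match lies in CDT1 and the only CHR match in CKS2, while NF-Y boxes are in 4 of the 6 windows.

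The 5 genes did not move together. CDT1, RRM2 and BRCA1 were lower in HRP2 knockdown cells, and CKS2 and CDKN1C were higher. The authors' deposited gene table holds only genes with a Q value under 0.05 (its largest is 0.0495), so every member is called in it by construction, 2 higher and 3 lower. Among 24237 mRNA genes whose names the authors list, 2.81% were called in either direction, 1.49% higher and 1.32% lower. How many of those were tested is not known, and since the members were taken from the called genes, nothing is read from this. No value per library was used here, so no SD can be given, whether the libraries of the groups overlap cannot be said, and sequencing depth is unknown. In bulk RNA a change in the share of cells in one phase of the cycle and a change in RNA per cell cannot be told apart. As a check of the labels, HDGFL2, the gene of HRP2, stood at 0.388 times the control level in knockdown cells in the authors' deposited table (Q = 2.99e-13).

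CDT1 (gene ID 81620, chromosome 16), the licensing factor, had the largest fall of the set. In the authors' deposited gene table its log2 fold change (knockdown over control) was -1.05, which is 0.484 times the control level (Q = 0.000125). It ranked 79th of 323 lower genes by size of change and 50th of all 684 called genes by Q value. Its neighbours in order of fold change in the authors' deposited table, SLC43A1 at -1.05 and ABTB1 at -1.05, are given for rank only. RefSeq lists 1 transcript for CDT1, and that transcript, NM_030928.3, was called at -1.05 in log2 fold change (Q = 0.0325) in the authors' deposited transcript table. Gene and transcript values differed by 0.0022 on the log2 scale, and the transcript had the larger Q value. Both come from the same 4 libraries, so the transcript is no second measurement.

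RRM2 (gene ID 6241, chromosome 2), the reductase subunit, was lower by less. In log2 fold change the authors' deposited gene table gave -0.51, or 0.701 times the control level (Q = 0.0221), which placed it 298th of the 323 lower genes by size. One of the 3 transcripts that RefSeq lists for it, NM_001034.3, was called at -0.52 in log2 fold change (0.698 times the control level, Q = 0.0364) in the authors' deposited transcript table. The gene and transcript values again lay close, with the transcript minus the gene at -0.0063 on the log2 scale. Both called member transcripts were thus lower, as were 49.0% of all called transcripts in the authors' deposited transcript table. Of the 31-nucleotide words of the longest protein-coding RRM2 transcript, 33.1% also occurred in transcripts of other GENCODE genes. AC007240.1 and the pseudogenes RRM2P3 and RRM2P2 were among these. Whether the authors' reference held them is not known, so whether the counting split RRM2 reads is not known either. The same share was 7.51% for CDT1 and 1.78% for BRCA1. CES2 at -0.52 and MGAT2 at -0.51 flanked it in the order of log2 fold changes in the authors' deposited table.

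BRCA1 (gene ID 672, chromosome 17), the recombination gene, was lower as well and lay nearest to the authors' threshold among the 5. In the authors' deposited gene table its log2 fold change was -0.62 (0.652 times the control level, Q = 0.0395), which ranked 239th of 323 lower genes by size and 589th of 684 by Q value. None of its transcripts was called in the authors' deposited transcript table. RefSeq on GRCh38.p14 lists 368 of them, but how many the authors tested on hg19 is not known. Its nearest genes in rank were SEL1L at -0.62 and TUFT1 at -0.61 in log2 fold change (authors' deposited table). The RefSeq locus overlaps 6 other annotated genes, among them NBR2 and BRCA1P1, none of them called, and the strandedness of the counts is not given in the sources used here.

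CKS2 (gene ID 1164, chromosome 9), the kinase-binding protein, was higher. Its log2 fold change in the authors' deposited gene table was 0.52, or 1.44 times the control level (Q = 0.0172), which is 292nd of 361 higher genes by size. The single RefSeq transcript of CKS2 had no row in the authors' deposited transcript table. ABCE1 and ANKRD12, both at 0.52, stood on either side of it in that order of log2 fold changes (authors' deposited gene table). Of its sequence words, 8.75% also occurred in other genes.

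CDKN1C (gene ID 1028, chromosome 11), the kinase inhibitor, showed the largest change of the set in either direction. The authors' deposited gene table put it at a log2 fold change of 1.30, which is 2.46 times the control level (Q = 0.000578), 21st of the 361 higher genes by size and 83rd of all called genes by Q value. None of its 5 RefSeq transcripts was called in the authors' deposited transcript table. OLFML2A at 1.23 and BHLHE40 at 1.30 bracketed its log2 fold change in the authors' deposited gene table. No word of its longest protein-coding transcript occurred in another gene, and RefSeq lists no gene overlapping it.

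**Figure D2:**
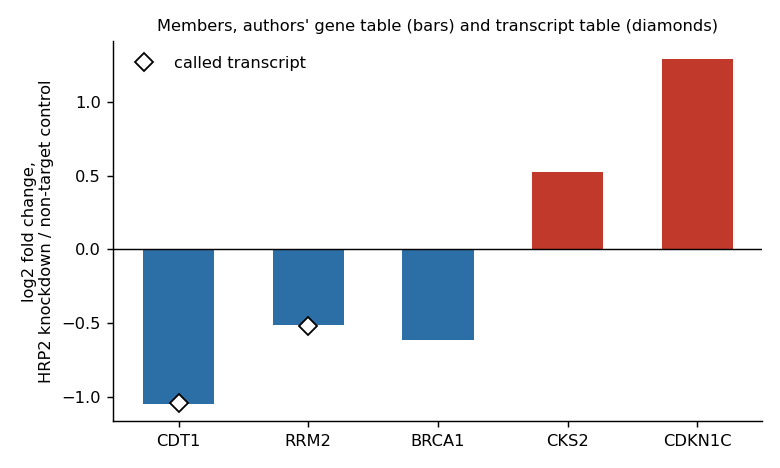
Log2 fold changes of the 5 genes in the authors' deposited gene table (bars) and of the called transcripts in their transcript table (diamonds), HRP2 knockdown over non-target control. There are no error bars because values per library were not used. CDT1, RRM2 and BRCA1 lie at -1.05, -0.51 and -0.62, CKS2 and CDKN1C at 0.52 and 1.30, and both diamonds fall on the ends of their bars.

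Within the set, CDT1 and CDKN1C stood apart from the other 3 in size and in Q value. These 2 genes alone had a Q value under 0.01, as did 255 of the 682 called mRNA genes (1.05% of the listed mRNA genes). They alone reached an absolute log2 fold change of 1, as did 148 of the 682 (0.611% of the listed mRNA genes). The 5 were taken from the called genes, so nothing is read from the shares over all listed mRNA genes. RRM2, BRCA1 and CKS2 were smaller in absolute log2 fold change than the median called gene of their direction, which was -0.78 among lower genes and 0.66 among higher ones in the authors' deposited table. The median log2 fold change of the 5 was -0.51, beside 0.47 for all 684 called genes. No called gene had an absolute log2 fold change under 0.3826. Each median therefore mainly shows which direction held more genes, and nothing is read from the pair.

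**Figure D3:**
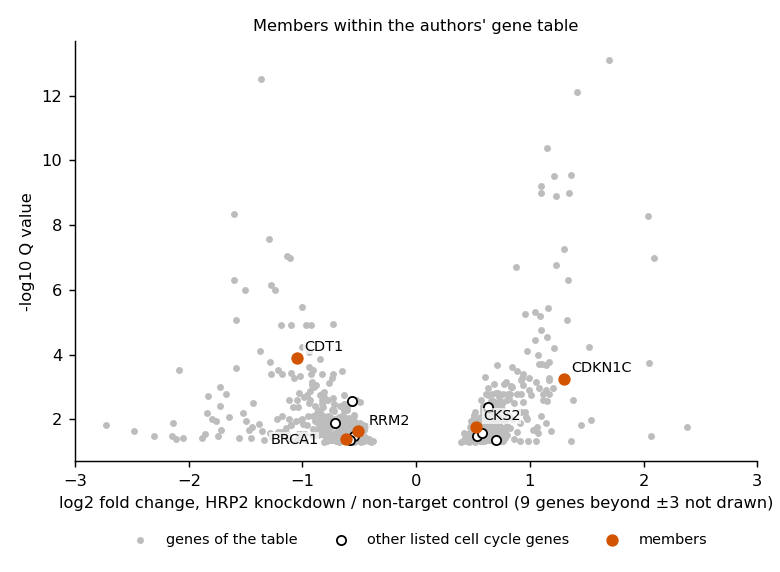
Log2 fold change (x axis, HRP2 knockdown over non-target control) against -log10 of the Q value (y axis) for genes of the authors' deposited table, without the 9 beyond an absolute value of 3. Filled circles are the 5 genes and open circles the 8 other called genes of the cell cycle lists. CDT1 and CDKN1C lie above the dense base of the plot, and RRM2, BRCA1 and CKS2 lie in it.

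The pathways around the 5 genes were then read from 9 lists holding 267 genes, all of them named in the authors' files, chosen with earlier results of these data known. Of the 267 genes, 13 (4.87%) were called in the authors' deposited gene table, 6 higher and 7 lower, and the median of their log2 fold changes was -0.51. Without the 5 members it was 8 of 262 (3.05%), 4 higher and 4 lower, against 2.81% of all listed mRNA genes. That share lies near the one over all listed mRNA genes, but how many of either were tested is not known. The median log2 fold change of the 8 was -0.0045, a midpoint between the higher and the lower genes. No called gene had an absolute log2 fold change under 0.3826, so neither median is read as a typical change. For the 254 listed genes outside the table no value is known, so they are not shown to be unchanged.

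Of 17 licensing genes 2 (11.8%) were called, CDT1 and ORC6, and the 2 went opposite ways. Without CDT1, which is called by construction, it was 1 of 16 (6.25%), beside 2.81% of all listed mRNA genes. Nothing is read from counts this small. ORC6, a subunit of the origin recognition complex, was higher by 0.63 in log2 fold change (1.55 times the control level, Q = 0.00408) in the authors' deposited gene table. The other 15 of 17 licensing genes, with CDC6, geminin (GMNN) and all 6 MCM helicase subunits among them, were not in the table. Of 12 genes for CDT1 destruction 1 (8.33%) was called. This was CUL1, the scaffold of SCF ubiquitin ligases, higher at 0.54 in log2 fold change (Q = 0.0335, authors' deposited gene table). Of the 44 listed genes for origin firing and the replication fork 1 (2.27%) was called, near the 2.81% of all listed mRNA genes. It was POLD4, a DNA polymerase delta subunit gene, lower at -0.58 in log2 fold change (Q = 0.0432, authors' deposited gene table), and 53.5% of its sequence words also occurred in other genes.

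Around RRM2, 3 of 26 deoxynucleotide supply genes (11.5%) were called in the authors' deposited gene table, 2 lower and 1 higher, RRM2 itself included. Without RRM2, which is called by construction, it was 2 of 25 (8.0%), beside 2.81% of all listed mRNA genes. Nothing is read from counts this small. TK1, the cytosolic thymidine kinase of S phase cells, was lower at a log2 fold change of -0.57 (Q = 0.00267) and 0.675 times its control level in the authors' deposited gene table. CTPS1, a CTP synthase, was higher, with 0.58 as its log2 fold change (Q = 0.0271, authors' deposited gene table). RRM1, the large reductase subunit, was not called as a gene, but 1 transcript of it, NM_001318064.1, stood at 22.59 in log2 fold change (Q = 1.31e-06) in the authors' deposited transcript table. This was the largest absolute value among called transcripts of listed genes. The levels behind it were not used here, so whether 1 group lay near 0 is not known. Its size is therefore not read as a change in RRM1.

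BRCA1 and CDKN1C, called by construction, were each the one called gene of their lists. The count was 1 of 43 (2.33%) for the list of BRCA1, and 1 of 11 (9.09%) and 1 of 19 (5.26%) for those of CDKN1C. Of all listed mRNA genes 2.81% were called, and nothing is read from these counts. None of the 42 other genes of BRCA1 complexes and homologous recombination was called in the authors' deposited gene table, BARD1, BRCA2 and PALB2 included. None of the 10 other kinase inhibitors and pocket proteins was called there, CDKN1A, CDKN1B and RB1 included, nor was any of the 18 other genes listed for the imprinted 11p15.5 region, such as KCNQ1OT1, PHLDA2 and IGF2. The lists are not complete: the authors' deposited gene table also holds the replication and repair genes PRIMPOL at -0.78, RECQL5 at -0.75, MUS81 at -0.57 and BCCIP at 0.67 in log2 fold change, named after their values were seen. Taking the 5 nearest protein-coding genes on each side of every member, a choice made after the values were seen, 1 of 50 was called, near the 2.81% of all listed mRNA genes. It was IFI35, near BRCA1, at -0.67 in log2 fold change (Q = 0.0169, authors' deposited gene table).

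Of 34 genes for G1/S cyclins, kinases and E2F factors, 2 (5.88%) were called: the activator E2F2 was lower at a log2 fold change of -0.71 (Q = 0.0133) and E2F5, a factor that acts with pocket proteins, was higher at 0.70 (Q = 0.0425) in the authors' deposited gene table. Of 64 G2/M and mitosis genes, 2 (3.12%) were called, and 1 of 63 (1.59%) without CKS2, beside 2.81% of all listed mRNA genes. One of the 2 was the member CKS2, called by construction. The other, PKMYT1, a kinase that holds CDK1 inactive, was lower, its log2 fold change being -0.54 (Q = 0.0319, authors' deposited gene table). CKS1B, the paralogue of CKS2, was not in the table, nor were the cyclins CCNA2 and CCNB1, the kinase CDK1 or the proliferation marker MKI67.

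**Figure D4:**
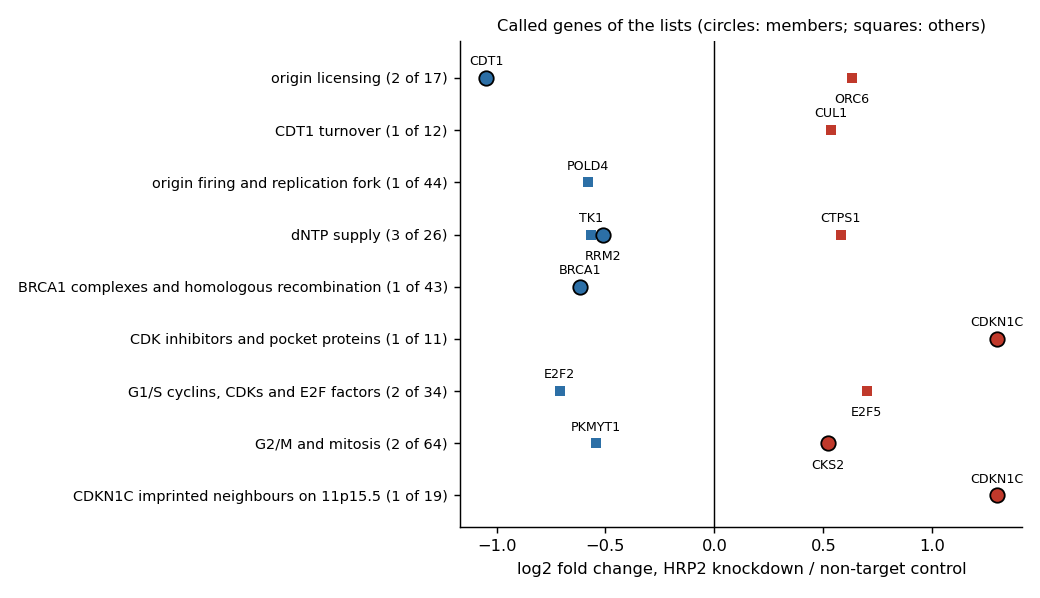
Log2 fold changes (x axis, HRP2 knockdown over non-target control) of the called genes in 9 cell cycle lists, one list per row, with the number called of the number listed. Circles are the 5 genes of the set and squares other genes. Licensing, deoxynucleotide supply, G1/S and G2/M lists hold genes on both sides of 0.

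The authors' deposited transcript table held 20 transcripts of 17 other listed genes, 0 of which were also called as genes. An absolute log2 fold change of 6 or more was found for 16 of the 20 (80.0%), 8 higher and 8 lower, close to the 79.1% of all 1040 called transcripts. Transcript levels were not used here, so the sizes of such values are not interpreted. The 4 under 6, named after their values were seen, were CDK6 at -1.05, MYBL2 at -0.30, and 2 transcripts of PRC1, at -3.02 and 1.54 (log2 fold changes, authors' deposited transcript table). PRC1, a spindle midzone protein, and RFC5, a clamp loader subunit with transcripts at -9.15 and 9.71 in the authors' deposited table, each had transcripts in both directions.

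Base composition differed within the set. The median GC content of protein-coding transcripts was 66.0% for CDT1 and 62.9% for CDKN1C, which ranked 22nd and 66th from the top among 676 called genes with a value. It was 43.4% for RRM2, 43.2% for BRCA1 and 41.4% for CKS2, beside a median of 57.5% for lower and 46.7% for higher called genes. Of the 169 genes richest in GC (the highest quartile), 14.8% were higher, and CDKN1C had the largest log2 fold change of those 25 in the authors' deposited table. By GC content CDT1 lay nearer the median of the lower genes and CKS2 nearer that of the higher genes, each its own direction, and CDKN1C, RRM2 and BRCA1 lay nearer the median of the opposite direction. Base composition goes with direction over the whole table, and its part in the values of the members was not tested.

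**Figure D5:**
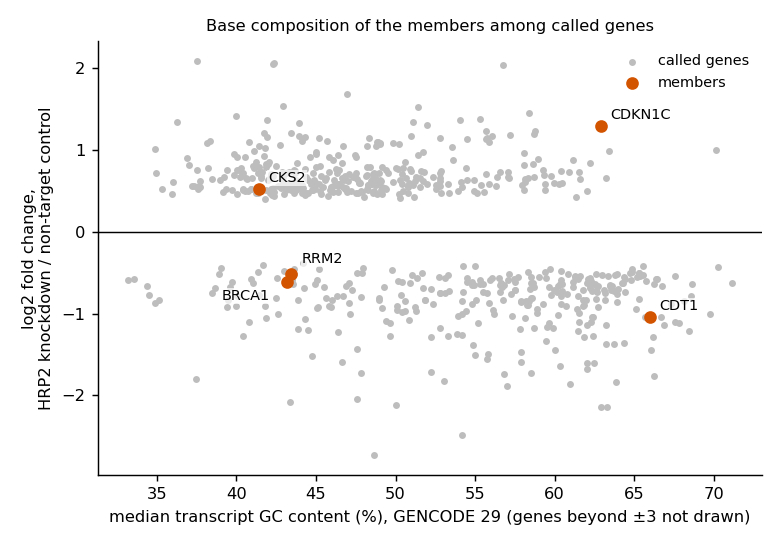
Median GC content of protein-coding transcripts (x axis, %) against the log2 fold change in the authors' deposited gene table (y axis, HRP2 knockdown over non-target control), without genes beyond an absolute value of 3. CDT1 and CDKN1C share a high GC content, 66.0% and 62.9%, and lie on opposite sides of 0, and RRM2, BRCA1 and CKS2 lie between 41.4% and 43.4%, also on both sides.

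Of 9 plasma cell markers, 3 were called, all lower, where 1.32% of all listed mRNA genes were called lower: SDC1 at -0.45, TNFRSF17 at -0.48 and IRF4 at -0.63 in log2 fold change (authors' deposited gene table). The other 6 have no value, and none of 15 markers of T and NK, myeloid or stromal cells was called in the authors' deposited gene table. Levels of these markers were not used here, so the labelled cell type could not be checked against them, and the part of the plasma cell markers in the values of the cell cycle genes was not tested.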

How the data were processed

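RNA from 2 HRP2 knockdown and 2 non-target control LP-1 libraries was, per the labels, extracted with Trizol and sequenced after BGI library preparation. Tools named without a role in the submitters' processing notes are BWA, Bowtie2 and RSEM, and the build is hg19. For the test behind the Q values, the normalization and the strandedness, the method is not given in the sources used here. Per the file headers, the authors computed the log2 fold changes (knockdown over control) and the Q values (adjusted p-values), which were all under 0.05. The other deposited files were read for names only.

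No value per library was used, so the tests planned for counts or normalized values were not run, and the authors' values are described instead. Members, lists and rules were chosen with earlier results of these data known. Named with values are every member, every called gene of the 9 lists, the genes next to each member in rank, and HDGFL2, with the called ones of 9 plasma cell markers; some cell cycle genes are not reported here; transcripts of other genes, IFI35 and 4 replication and repair genes outside the lists were added after their values were seen, and genes without a value are named as examples of their lists. Symbols were matched by gene ID through RefSeq (GRCh38.p14), synonyms included. Transcript GC content is the median over protein-coding transcripts in GENCODE 29. Shared words are of 31 nucleotides. Motif words were searched with Python 3.11.15 on both strands, and the search was tested on simulated data.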

Additional observations from a re-analysis of the deposited data

How the results depend on the processing

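No paired analysis was possible because no value per library was used, and for the same reason no library could be left out and no other normalization or filter on low counts was run. With a Q value under 0.01, 1 of the 2 higher members (CDKN1C) and 1 of the 3 lower members (CDT1) were left, and a minimum of 1 in absolute log2 fold change left 1 higher and 1 lower, again CDKN1C and CDT1. In the transcript table in place of the gene table, 0 members were higher and 2 lower. Of the 2 lower member transcripts, 0 had a Q value under 0.01, and both counts stayed as they were below an absolute log2 fold change of 6 and with synonyms resolved. Over the 9 lists, the 6 higher and 7 lower genes became 2 and 2 with a Q value under 0.01 (CDKN1C and ORC6 higher, CDT1 and TK1 lower), 1 and 1 with that minimum size of change, and 4 and 4 without the 5 members. The limits on Q value and size and the removal of the members only took rows out, so they could not reverse a direction. The limit of 6 could not remove the member transcripts, which stood at -1.05 (CDT1) and -0.52 (RRM2) in log2 fold change. The transcript table rests on the same libraries as the gene table. None of these settings is therefore a test of the directions. With 200 bases before the start as the window, E2F, CHR and GC box matches were found in as many windows as before. The NF-Y box was found in 3 windows in place of 4. Depth is unknown, so its limit on these values cannot be given.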
